A study of Mus musculus with 2 samples.

Results

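Cells rich in transcripts of neutrophil primary granule proteins were picked out of 2 single-cell libraries of the mouse gut lamina propria, CD163_FL and CD163_NC, with 1 library per group. A barcode was taken as a member when it had at least 500 UMIs (unique molecular identifiers, counts of single RNA molecules), at least 200 detected genes, at most 10% mitochondrial UMIs and at least 10 UMIs summed over Mpo, Elane, Prtn3 and Ctsg. Of 24391 kept barcodes, 93 were members: 1 of 14379 in CD163_FL and 92 of 10012 in CD163_NC. These 4 genes chose the members, so their levels in members are given as a description.

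The labels give the cells of both libraries as CD45+, and the protocols name the colon as the organ, a Percoll density gradient (the interphase of the 40% and 80% fractions was taken), sorting, and exclusion of dead cells with 7-AAD. The title of the series sets wild-type animals beside animals that lack CD163+ macrophages. Neither library carries a genotype in its labels, so both keep their label names. The labels state no strain, age or sex and no number of mice per library.

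Neutrophils arise in the bone marrow from progenitors that pass through ordered steps. Promyelocytes make the primary (azurophil) granules, which hold myeloperoxidase (Mpo), a heme enzyme that makes hypochlorous acid, and the serine proteases neutrophil elastase (Elane), proteinase 3 (Prtn3) and cathepsin G (Ctsg). Transcription of these genes is shut off as cells become myelocytes, which make secondary granule proteins such as lactoferrin (Ltf) and the cathelicidin Camp, while early monocyte precursors also pass through a stage with Mpo and Elane transcripts. Mast cells and basophil precursors can also hold cathepsin G transcripts.

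In the GRCm38 annotation (GENCODE M21), Prtn3 (ENSMUSG00000057729) lies at chr10:79874476-79883174 on the plus strand and Elane (ENSMUSG00000020125) at chr10:79886247-79888215 on the same strand, with 3072 bases between them. Mpo (ENSMUSG00000009350) lies at chr11:87793581-87804413 on the plus strand, and Ctsg (ENSMUSG00000040314) at chr14:56099881-56102574 on the minus strand. The transcripts of the 4 genes varied together among the members (rank correlations further on), but their sum chose the members. Whether the genes share a control was not tested. Their promoters are shown as a description. Each is the RefSeq window from 250 bases before to 50 bases after the gene's start (GRCm38.p6), whose starts for Mpo, Elane and above all Prtn3 lie inside the GENCODE spans above, read 5′ to 3′ on the gene's strand: chr11:87793534-87793833 for Mpo, chr10:79886062-79886361 for Elane, chr10:79879417-79879716 for Prtn3 and chr14:56102525-56102824 for Ctsg. Capitals mark matches, on either strand, to GAGGAAG (a core of sites for PU.1, the product of Spi1), AACTG (a core of MYB sites) or TGTGGT (a core of RUNX sites); no match overlapped another.
Mpo: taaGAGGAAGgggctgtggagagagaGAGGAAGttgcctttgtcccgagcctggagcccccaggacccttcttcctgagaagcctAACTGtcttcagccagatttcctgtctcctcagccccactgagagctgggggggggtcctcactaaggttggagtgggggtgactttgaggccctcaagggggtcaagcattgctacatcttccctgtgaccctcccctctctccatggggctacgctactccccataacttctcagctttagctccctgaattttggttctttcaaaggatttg
Elane: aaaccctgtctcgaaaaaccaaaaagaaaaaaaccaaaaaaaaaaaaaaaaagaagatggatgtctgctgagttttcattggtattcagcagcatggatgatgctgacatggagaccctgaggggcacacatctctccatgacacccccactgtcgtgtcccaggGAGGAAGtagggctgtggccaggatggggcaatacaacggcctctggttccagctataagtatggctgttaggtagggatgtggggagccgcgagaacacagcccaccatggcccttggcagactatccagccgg
Prtn3: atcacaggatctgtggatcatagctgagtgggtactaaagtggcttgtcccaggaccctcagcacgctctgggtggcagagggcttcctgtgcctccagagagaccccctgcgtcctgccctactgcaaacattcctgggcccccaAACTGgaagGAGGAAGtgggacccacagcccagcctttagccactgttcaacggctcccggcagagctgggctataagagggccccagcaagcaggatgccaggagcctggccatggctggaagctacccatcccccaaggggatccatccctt
Ctsg: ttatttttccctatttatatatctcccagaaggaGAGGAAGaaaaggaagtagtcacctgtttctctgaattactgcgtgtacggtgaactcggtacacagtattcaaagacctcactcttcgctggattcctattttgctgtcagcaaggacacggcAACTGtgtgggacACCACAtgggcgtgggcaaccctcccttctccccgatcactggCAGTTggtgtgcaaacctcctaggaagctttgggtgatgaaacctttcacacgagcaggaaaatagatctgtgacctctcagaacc

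GAGGAAG was found in 4 of the 4 windows, and in 13.6% of 32851 mouse promoter windows of the same 300-base length. AACTG was in 3 of the 4 windows and in 44.8% of all windows, and TGTGGT in the Ctsg window alone of these 4 and in 16.8% of all. TTNNGNAA, a loose core of C/EBP sites in which N is any base, was in 0 of the 4 windows and in 40.7% of all. A match to these letters describes the window and is not a binding site shown by these data.

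The share of members was 0.00695% of kept barcodes in CD163_FL (exact Clopper-Pearson 95% interval 0.000176 to 0.0387%) and 0.919% in CD163_NC (0.741 to 1.13%). Intervals throughout reflect counting error alone. As each group is 1 library, no difference has a replicate check or a test, and any difference in preparation or in the animals cannot be told apart from the group. The 4 genes summed to 268 UMIs over the kept barcodes of CD163_FL and 38713 in CD163_NC, where members held 95.6% of them. In CD163_FL the highest count in any barcode was 3 for Mpo, 1 for Elane, 3 for Prtn3 and 10 for Ctsg. In CD163_NC the highest counts were 752, 886, 837 and 364.

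**Figure D1:**
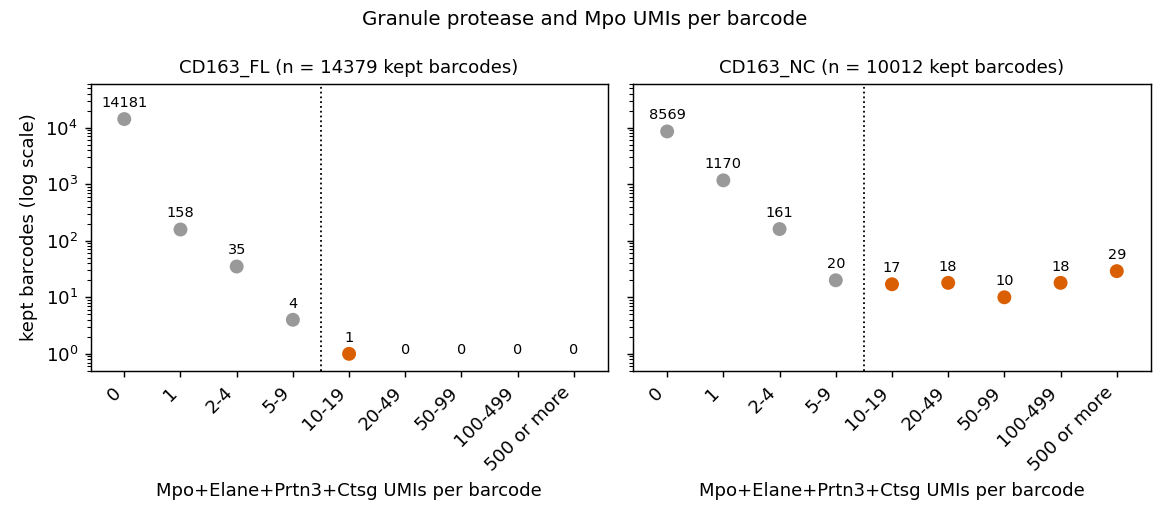
Number of kept barcodes (log scale) at each range of summed Mpo, Elane, Prtn3 and Ctsg UMIs in CD163_FL (left) and CD163_NC (right), 1 library each; the dotted line is the member threshold of 10 and orange points are members. CD163_FL had 1 barcode past the line, while CD163_NC had 29 barcodes with 500 UMIs or more.

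Near the threshold, CD163_FL had 1 barcode with 10 to 12 summed UMIs and 0 with 7 to 9. CD163_NC had 8 with 10 to 12 (median depth 1476.5 UMIs) and 10 with 7 to 9 (median 1716.5 UMIs). T cells, which should lack these transcripts, were used as a gauge of stray UMIs. Whether all such UMIs in them were stray was not tested. Among cells with at least 3 T cell receptor complex UMIs, those with a UMI in CD163_FL (n = 7147, median 7548 UMIs) were 0.350% for Mpo, 0.0140% for Elane, 0.644% for Prtn3 and 0.0560% for Ctsg. In CD163_NC (n = 3659, median 6147 UMIs) they were 4.89%, 3.22%, 3.77% and 1.50%. Of these CD163_NC cells, 34.4% also had at least 30 UMIs over the plasma cell genes Jchain, Igha and Mzb1. Member shares in CD163_NC were 92.4%, 94.6%, 97.8% and 80.4% at a median of 24588.5 UMIs; these follow from the rule and are not set against the stray level.

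The single member of CD163_FL had 26552 UMIs and reached the threshold by Ctsg alone, with 10 UMIs and none of Mpo, Elane or Prtn3. It also had 46 UMIs of Mcpt8, a basophil and immature mast cell protease, 41 of Cpa3, the mast cell carboxypeptidase, 9 of Fcer1a and 4 of Ms4a2, both subunits of the high-affinity IgE receptor, and 15 of the stem cell factor receptor Kit. CD163_FL thus had no member with a UMI of neutrophil elastase or myeloperoxidase. From here on the members are the 92 of CD163_NC.

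The members of CD163_NC were large in RNA content for their library. The rule asks for a fixed number of UMIs, which deep barcodes reach more easily, so part of this depth follows from the rule. They had a median of 24588.5 UMIs and 5202 genes, against 6128.5 UMIs and 2171 genes in the 9920 other kept barcodes, with median mitochondrial shares of 2.27% and 1.92%. Their depths split at a gap: 25 members had 5841 UMIs or fewer and 67 had 11672 or more. Scrublet called 5.07% of kept barcodes doublets in CD163_FL and 2.86% in CD163_NC, below the 12.2% and 8.31% expected at 0.8% per 1000 deposited barcodes, and called 0 of the members in either library. The libraries shared 49 barcodes, none of them a member. Ptprc, which encodes the CD45 of the label, was detected in 78 of 92 members and in 67 of the 67 deep ones, at 198 CPM (UMIs of a gene scaled to a common library total) against 772 CPM in the other barcodes.

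Per member, Mpo ran from 0 to 752 UMIs (median 29.5), Elane from 0 to 886 (24.5), Prtn3 from 0 to 837 (49) and Ctsg from 0 to 364 (8.5). The sum of the 4 genes took between 0.0306% and 5.93% of a member's UMIs, with a median of 1.19%. The 4 genes varied together: over the 67 deep members, Spearman's rho of the UMI shares ran between 0.67 for Elane with Ctsg and 0.89 for Elane with Prtn3. Over all 92 it ran between 0.54 and 0.80. These rhos are descriptions over cells of 1 library, which share their depth and the rule, and carry no test. Summed over members, Elane gave 31.1% of the granule UMIs, Mpo 29.9%, Prtn3 27.6% and Ctsg 11.4%.

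Of the 6 genes given as marks of these cells, 4 are those of the rule, and the other 2 were not found. Siglech, a receptor of plasmacytoid dendritic cells, and Cox6a2, a cytochrome oxidase subunit found in those cells and in muscle, had 0 UMIs in the 1 member of CD163_FL and in the 92 of CD163_NC. For the 67 members with at least 10000 UMIs (the deep members), 0 of 67 allows a share of cells with a UMI of up to 4.48%; the shallower ones hold too few UMIs for absence to be read. Both were readily seen elsewhere: in CD163_FL 12 other barcodes had at least 3 UMIs of their sum, and in CD163_NC 34 did. Of those 34, 5 had any granule UMI, at most 7. That is near the share in the whole library, where 8569 of 10012 kept barcodes had none, so it is not read further. The 0 UMIs in members go against Siglech and Cox6a2 as marks of the members, which carried the granule genes without them.

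The other genes of the plasmacytoid dendritic gate were sparse. At least 3 UMIs over Siglech, Cox6a2, Klk1, Klk1b27, Ccr9 and Smim5 were seen in 6 of 92 members (6.52%, 2.43 to 13.7%) and in 2.30% of T cell gate cells of the same library. These came from Smim5 (36 UMIs in 22 members), Ccr9, the gut-homing chemokine receptor (8 UMIs in 6 members), and Klk1 (4 UMIs in 3). With each cell thinned to 1000 UMIs, 0 of 84 members and 0.137% of T cell gate cells passed, and 8 members too shallow to thin were left out. Smim5 stood at 14.1 CPM in members and 1.73 CPM in the other barcodes. Genes of the longer list that other cells also use were plentiful: Bst2, an interferon-induced membrane protein, had 841 UMIs in 71 members (329 CPM, against 564 CPM in the other barcodes), and the transcription factor Tcf4 had 276 in 52 (108 against 251 CPM). Many of these UMIs lay in members rich in plasma cell RNA (set out below). The members with the most Tcf4, 28 and 23 UMIs, had 58 and 62 Bst2 UMIs. They held 4956 and 9064 UMIs of Jchain, Igha and Igkc. Bst2 was not confined to such members, with 27 UMIs in one that held 88. The list of 15 plasmacytoid genes summed to 607 CPM in members, 424 CPM in mature neutrophil gate cells and 1322 CPM in the other barcodes.

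The defining B cell precursor transcripts were at or near 0 in members. Over Vpreb1, Vpreb2 and Igll1 (the surrogate light chain), Rag1, Rag2 (the recombinase) and Dntt, 0 of 92 members reached 3 UMIs (up to 4.48% for the 67 deep ones), while 28 other barcodes of CD163_NC did. Vpreb1 had 5 UMIs in 4 members, Igll1 3, Rag2 and Dntt 1 each, and Rag1 and Vpreb2 0. Of the T cell gate cells 0.109% passed. In CD163_FL, 0 of 1 member and 2 other barcodes passed. The longer list of 12 B precursor genes, some of them also used by mature B cells, summed to 204 CPM in members, 116 CPM in mature neutrophil gate cells (defined further on) and 1664 CPM in the other barcodes. Ebf1, a factor of the B lineage, made up 222 of its 520 UMIs in members. It was seen in 22 cells but at 10 or more UMIs in only 5, with up to 51 in 1 of them. Vpreb3 had 23 UMIs in 10 members.

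Early granulocyte genes beyond the rule were mostly higher in members than in the rest of the library. The comparisons below set the members against the 9920 other kept barcodes of CD163_NC in CPM of summed UMIs, over 16933 genes with at least 20 UMIs. Past 2-fold, 17.2% of these genes were higher in members and 19.9% lower, with a median log2 ratio of 0.20; counting only genes whose whole interval lay past 2-fold, the shares were 9.25% and 8.53%. Of the 14 other early granulocyte genes, 12 were at least 2-fold higher and 0 lower, with a median log2 ratio of 3.27. The list summed to 9180 CPM in members, but to 13598 CPM in mature neutrophil gate cells and 14117 CPM in monocyte gate cells of the library (both defined further on). Of its 14 genes, 8 were higher and 3 lower in members than in the neutrophil gate cells, and 7 higher and 2 lower than in the monocyte gate cells; Lyz2, the lysozyme of all these cells, was among the lower ones in both, at 1737 CPM in members against 9880 and 5790 CPM. Intervals are exact conditional binomial 95% intervals.

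Ms4a3, a membrane protein of granulocyte and monocyte progenitors, had the largest ratio: 777 CPM in members and 2.22 CPM in the others, 351-fold (303 to 408). It was found in 76 of the 92 members, at 0 to 164 UMIs with a median of 7. Fcnb, the myeloid ficolin, had 485 against 5.84 CPM (83.0-fold, 74.9 to 92.1), and Prss57, another azurophil granule serine protease, had 136 against 2.79 CPM (48.9-fold, 41.4 to 57.7). Of the protease partners, Serpinb1a, an inhibitor of these proteases, had 398 against 49.7 CPM, and Cst7, the leukocystatin, 106 against 12.8 CPM. Ctsc, the peptidase that activates the granule proteases, had 96.0 against 111 CPM and so did not pass 2-fold, nor did the proteoglycan Srgn at 1403 against 1337 CPM.

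The other largest ratios went to genes of varied function. Kcnk12, a potassium channel subunit, had 51.7 against 0.452 CPM (114-fold, 80.0 to 167), and Dmkn 70.1 against 0.639 CPM (110-fold, 81.1 to 150). Gria3, a glutamate receptor subunit, had 336 against 4.51 CPM (74.6-fold, 66.3 to 84.2). Adgrl4 had 78.3 against 1.11 CPM, and Hnmt, the histamine N-methyltransferase, 28.6 against 0.518 CPM. The transcription factor Tfec had 65.4 against 1.20 CPM, Far2, a fatty acyl-CoA reductase, 26.6 against 0.595 CPM, Fcor 31.7 against 0.716 CPM and Plppr3 50.1 against 1.25 CPM. F13a1, coagulation factor XIII A of monocytes and macrophages, had 412 against 9.77 CPM, and Cd34, the progenitor sialomucin, 70.5 against 1.73 CPM.

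The ranking by level left out immunoglobulin genes such as Igkc. Jchain, Igha and Igkc summed to 43658 CPM in members. Of the genes ranked, S100a8 and S100a9, the calprotectin subunits, led. They stood at 26099 and 20235 CPM in members against 2601 and 2251 CPM in the others. Of 10 secondary granule genes 9 were higher and 1, Ly6g, lower (median log2 ratio 2.72), and of 10 mature neutrophil genes 5 were higher and 5 lower (median −0.36). Camp had 8606 against 572 CPM and Ngp, the neutrophilic granule protein, 4501 against 623 CPM. These means hide a split between members, described below. Tmsb4x, Malat1, Jchain, Ptma, Fau and Actb made up the rest of the 10 highest ranked genes outside the rule, from 7895 CPM (Tmsb4x) to 3550 CPM (Actb). Malat1 was lower in members (5376 against 16394 CPM), as was Jchain, the joining chain of IgA made by plasma cells (5165 against 15357 CPM).

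Of 14 stem and progenitor genes, 10 were higher in members, 0 lower, and the median log2 ratio was 2.74. Myb, a factor of progenitors, had 264 against 33.4 CPM, Kit 79.9 against 17.0 CPM, and Erg 58.0 against 3.41 CPM. Sox4 was 5.63-fold higher (4.52 to 6.94), whereas Flt3 had 23.1 against 19.4 CPM. Among 10 tested myeloid transcription factors, 7 were higher and 0 lower (median 1.95). Cebpe, which drives the secondary granule program, had 145 against 5.52 CPM, Spi1 197 against 46.1 CPM, Irf8, a factor of the monocyte and dendritic lineages, 197 against 88.4 CPM, Cebpa 48.2 against 6.36 CPM and Gfi1 53.7 against 15.4 CPM. Runx1 (409 against 458 CPM) and Cebpb (251 against 173 CPM) stayed within 2-fold.

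The members held more cell cycle RNA. Of 14 cell cycle genes, 13 were at least 2-fold higher and 0 lower, with a median log2 ratio of 2.02. Top2a, the topoisomerase of dividing cells, had 457 against 105 CPM, Stmn1 789.5 against 118.5 CPM and Mki67 259 against 94.3 CPM. At least 3 UMIs over Mki67, Top2a, Ccnb1, Ccnb2, Cdk1 and Ube2c were seen in 71 of 92 members (77.2%) and 8.23% of T cell gate cells. Thinned to 1000 UMIs the shares were 22.6% of 84 members (14.2 to 33.0%) and 1.02% of T cell gate cells. No phase was assigned.

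Of 11 tested growth factor receptor genes, 5 were higher and 1 lower (median log2 ratio 1.32). Csf3r, the G-CSF receptor, had 69.3 against 12.2 CPM, and Csf2ra, the GM-CSF receptor chain, 92.4 against 18.6 CPM; the lower gene was Il7r (3.92 against 44.8 CPM). Among 10 trafficking receptors 3 were higher, 3 lower and 4 within 2-fold (median −0.22). Itgam (CD11b) had 94.4 against 25.1 CPM, whereas Itgb7, a chain of the gut-homing integrin, had 42.7 against 105 CPM. Cxcr4, which holds cells in the marrow, had 112 against 140 CPM.

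Markers of other cell types were mostly lower in members than in the other barcodes, a pool that takes in those cell types. All 8 T cell genes, all 7 mature B cell genes, all 7 plasma cell genes and all 8 epithelial genes tested were at least 2-fold lower, with median log2 ratios of −3.75, −3.20, −1.57 and −1.75. So were 9 of 14 plasmacytoid dendritic genes (median log2 ratio −1.43, with genes at 0 in members entered at their bound) and 7 of 12 B precursor genes (−2.04). Of 11 tested monocyte and macrophage genes, 2 were higher and 3 lower (median 0.38). Of 10 erythroid genes 7 had 0 UMIs in members, and the 4 globin genes summed to 1 UMI. Plasma cell RNA was still plentiful, at 20419 CPM over its list in members against 64802 CPM in the others. Of its 7 genes, 7 were higher in members than in neutrophil gate cells and 6 than in monocyte gate cells. Both gated groups (defined further on) leave out plasma cell gate cells. Epithelial genes were higher in 0 of 6 and 6 of 7 tested, and 861 of their 961 UMIs in members lay in the F13a1 range set out below. T cell genes were higher in 3 of 8 and 1 of 8, and lower in 1 and 2. Immunoglobulin UMIs (Jchain, Igha and Igkc) ran from 28 to 174 in 78 members and from 2763 to 13307 in 14, all 14 with at least 37068 UMIs in all. At least 10 T cell gate UMIs were seen in 5 members, 3 of them among those 14. Leaving out those 14, a choice made after seeing the data, moved 109 of 206 single-gene log2 ratios by more than their counting interval, and turned the sign of 0 of those past 2-fold. Each of the 15 genes with the largest ratios was still more than 2-fold higher in members.

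Ranges of members were then set apart by cut-offs chosen after the values were seen, so they are ranges and not types, and the genes that set them are no findings. In order, 3 members had at least 10 UMIs over 5 basophil and mast cell genes, 21 had at least 10 UMIs over Ltf, Camp, Ngp and Lcn2 (the secondary granule range), 24 had under 10000 UMIs (the shallow range), 30 had at least 5 UMIs of F13a1 (the F13a1 range), and 14 remained. The secondary granule sum left a clear gap: 71 members had 9 UMIs or fewer, and 21 had between 238 and 5085. The values near the other cut-offs were less apart.

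**Figure D2:**
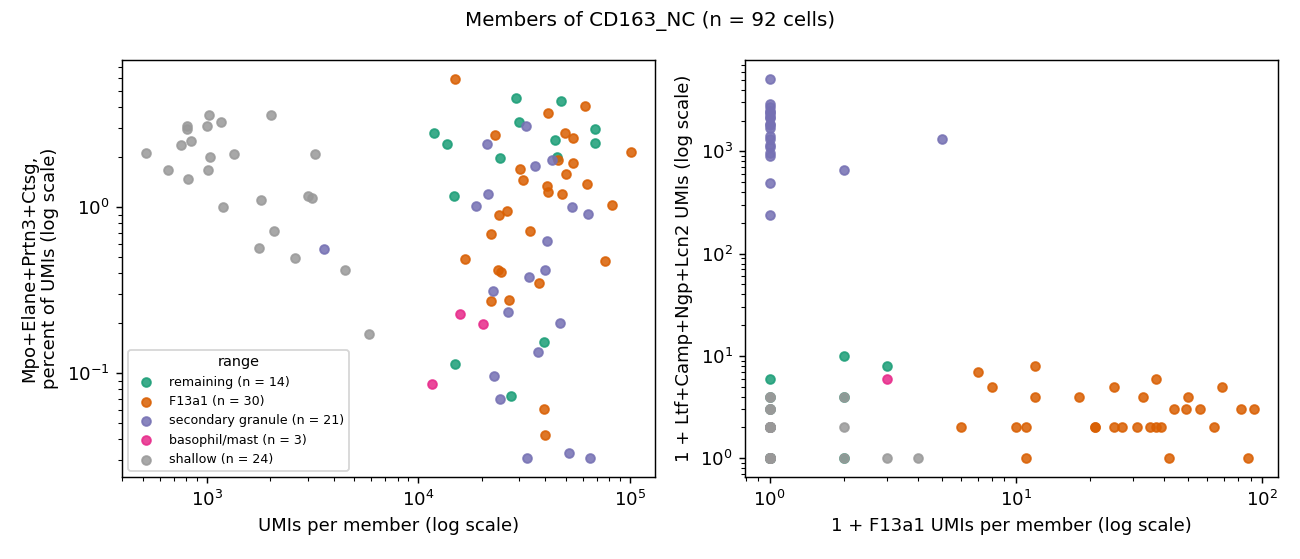
Each point is 1 of the 92 members of CD163_NC, coloured by range. Left, total UMIs against the percent of UMIs from Mpo, Elane, Prtn3 and Ctsg; right, 1 + F13a1 UMIs against 1 + summed Ltf, Camp, Ngp and Lcn2 UMIs, with the 21 secondary granule members at 238 or more, above all others at 9 or fewer (all axes log scale).

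In the secondary granule range all 4 granule genes were lower than in the 14 remaining members, and their makeup differed. The granule UMIs there were 46.6% Elane, 30.8% Prtn3, 20.4% Mpo and 2.25% Ctsg, against 30.7%, 26.5%, 29.0% and 13.9% in the 14 remaining members. Ctsg was at 0 to 37 UMIs with a median of 2 in the 21 cells, and at 0 to 360 with a median of 81 in the 14. The granule share of UMIs had a median of 0.416% in the 21 and 2.43% in the 14.

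The same 21 cells held the S100 transcripts: S100a8 ran from 28 to 5471 UMIs (median 2837) and S100a9 from 29 to 4821 (median 2252). In the 14 remaining members the medians were 4 and 1, although 5 of the 14 had 10 or more S100a8 UMIs. Fcnb was at 7 to 102 UMIs in the 21 (median 45) and at 0 in 10 of the 14. Cebpe was found in 20 of the 21 (median 10 UMIs) and in 11 of the 14 (median 4). Cd34 was at 0 UMIs in all 21 and at up to 30 in the 14. Among the 14, the cells with 30, 13 and 10 Cd34 UMIs had granule shares of 0.0726%, 0.155% and 0.114%. The rest of the 14, with higher granule shares, had at most 5 Cd34 UMIs. The stem and progenitor list summed to 198 CPM in the 21 and 1341 CPM in the 14.

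Genes of the last steps of neutrophil maturation stayed near 0 in the 21 cells. Retnlg was at 8.15 CPM, Mmp9, the granule gelatinase, at 1.36 CPM and Mmp8, the neutrophil collagenase, at 0 UMIs. Ltf, at 1022 CPM, was the lowest of the 4 genes that set this range. Mki67 was found in 21 of the 21, at 1 to 46 UMIs.

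Most cells of the F13a1 range carried monocyte-lineage transcripts beside the granule genes, but the 30 were mixed. Cebpe was at 3 UMIs or more in 5 of them, Gfi1 in 5, and S100a8 was at 10 or more in 6. In 1 of the 30, Epcam, Krt8, Krt18 and Lgals4 summed to 10 UMIs or more. Irf8 was found in 27 of the 30 cells (0 to 52 UMIs, median 15), and in 3 of the 14 remaining and 3 of the 21 secondary granule members. Ccr2, the receptor for monocyte chemokines, was in 27 of 30 (median 7) against 2 of 14 and 2 of 21. Csf1r, the M-CSF receptor, was in 24 of 30 with at most 8 UMIs. Ly6c2 was at 15 to 225 UMIs in all 30 (2889 CPM), but was also in 12 of 14 (1508 CPM) and 21 of 21 (2039 CPM) and so did not set the range apart. Gria3 was at 615 CPM in these 30, 165 CPM in the 14 and 13.6 CPM in the 21. The granule genes of the rule had medians of 163 UMIs for Mpo (27 of 30 with a UMI), 123.5 for Elane, 154 for Prtn3 and 57 for Ctsg, and summed to 15523 CPM, against 23995 CPM in the 14.

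Among the 67 deep members, Cebpe and Irf8 parted the cells with little overlap. At least 3 UMIs of Cebpe were in 34 and of Irf8 in 31, both in 6 and neither in 8. Gfi1, the repressor that opposes the monocyte fate, was at 3 UMIs or more in 19, of which 2 also had Irf8. Fcnb was in 29 and F13a1 in 31, with 6 sharing both. Ngp was in 21, of which 1 had F13a1, 1 had Cd34 and 4 had Kit. Cd34 was at that level in 20, 14 of them with Irf8. Ms4a3 spanned the split, in 53 of 67 and in 21 of the 31 with F13a1. These counts use cells of 1 library as they came and carry no test.

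The 14 remaining members had the highest Myb level and median granule share of the deep ranges. They were mixed, with granule shares from 0.0726% to 4.54%. Myb was found in 14 of 14 at 3 to 38 UMIs (537 CPM), against 282 CPM in the F13a1 range and 55.7 CPM in the secondary granule range. Gfi1 was in 12 of 14. Adgrl4 was in 13 of 14, at 244 CPM, and had 7 UMIs in the secondary granule range. Flt3, the receptor of early multilineage progenitors, reached 22 UMIs in 1 cell, which held 37.3% of the Flt3 UMIs of all members. That cell had a granule share of 0.155%, so the Cd34 and Flt3 levels of this range came mostly from cells low in granule RNA.

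**Figure D3:**
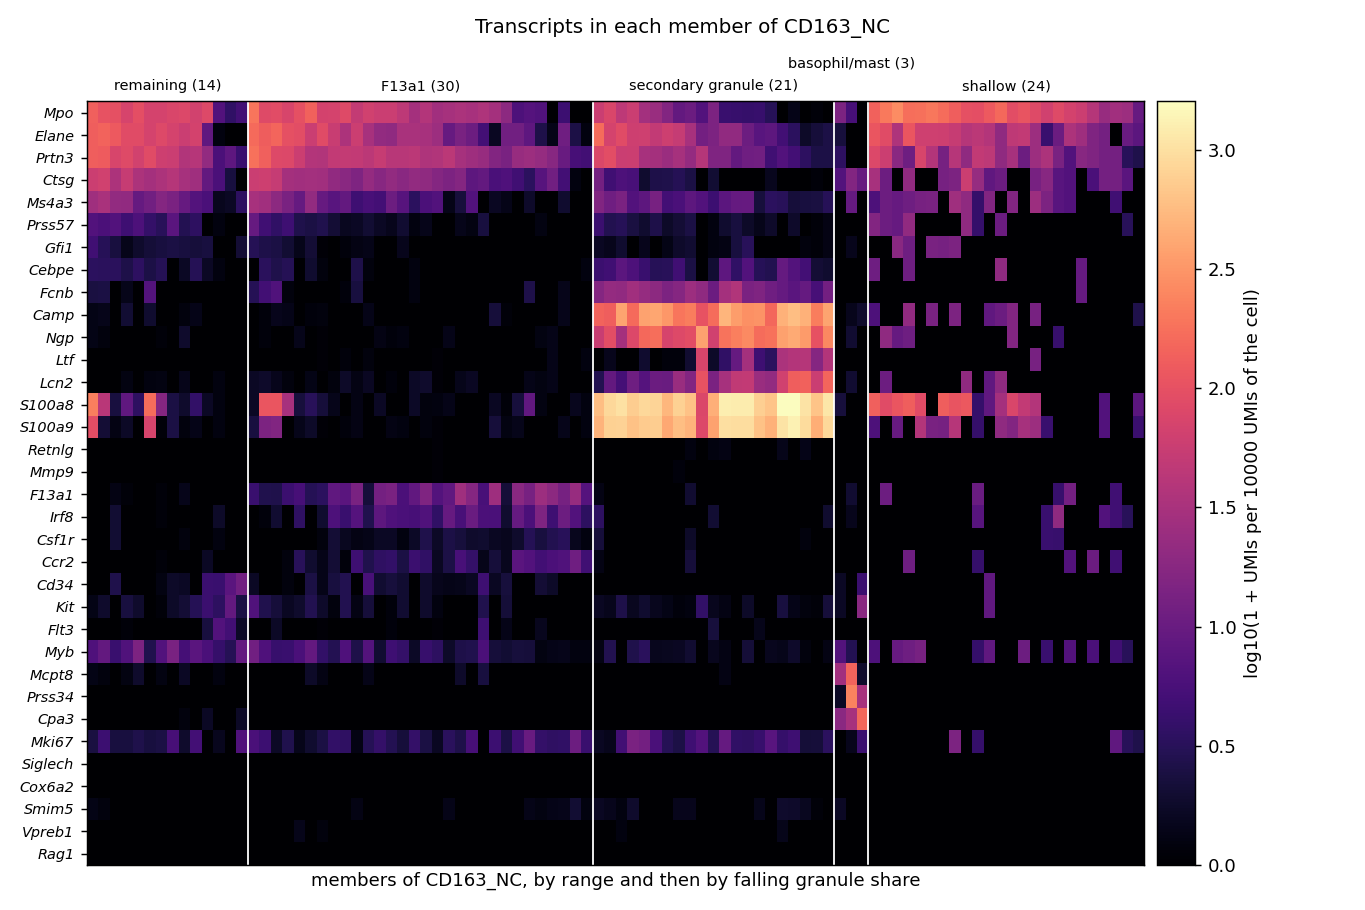
Heat map of 34 genes (rows) in the 92 members of CD163_NC (columns), grouped by range and sorted within a range by falling granule share; colour is log10 of 1 + UMIs per 10000 UMIs of the cell. Camp, Ngp, S100a8 and S100a9 are bright in the 21 secondary granule cells, F13a1 and Irf8 in the 30 F13a1 cells, and Siglech, Cox6a2 and Rag1 are at 0 throughout.

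The 3 members of the basophil and mast cell range differed from the rest. They held 10, 36 and 40 granule UMIs, of which Ctsg was 10, 9 and 31, Mpo 0, 21 and 9, and Elane 0, 2 and 0. Prss34, a basophil protease, was seen in these 3 members alone, and 92.9% of its UMIs lay in 1 of them. Mcpt8 was found in 16 members with 80.5% of its UMIs in 1 cell. All of the Cma1 (240 UMIs) and Tpsb2 (150 UMIs) were in 1 cell, the one with Ctsg as its only granule gene, like the member of CD163_FL. All 9 basophil and mast cell genes were higher in members than in the other barcodes (median log2 ratio 3.89), but 1916 of the 2072 UMIs of the list lay in these 3 cells; Hdc, the histidine decarboxylase, was spread wider, with 39 of 161 UMIs in them. In the other ranges the list stood at 46.5 CPM (shallow), 52.2 CPM (F13a1) and 55.7 CPM (secondary granule). It was higher in the 14 remaining members, at 99.96 CPM (73.7 to 133, from 48 UMIs). All were below the 334 CPM of mature neutrophil gate cells. Yet gene by gene, 8 of the 9 were higher in the 92 members (the 3 cells included) than in those gate cells, and 1 lower. Hdc alone was at 40.1 CPM in the F13a1 range, 50.2 CPM in the secondary granule range and 68.7 CPM in the 14. The summed levels thus do not rank these groups by basophil or mast cell content. With at least 20 granule UMIs asked for, which drops 1 of the 3 cells, the log2 ratio of Cma1 was −1.97, against 5.31 with all 92.

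The 24 shallow members held 517 to 5841 UMIs and 10 to 72 granule UMIs. Mpo made up 57.0% of their granule UMIs and Prtn3 15.7%. Barcodes under 10000 UMIs that fell short of the rule with 3 to 9 granule UMIs (n = 44, median 1009.5 UMIs) had a like makeup, 56.1% Mpo and 20.2% Prtn3. Immunoglobulin RNA was 5.14% of UMIs at the median in the shallow members, against 0.371% over all 92. Xist, carried by female cells, was in 4 of the 24 and in 67 of the 67 deep members, and the 4 Y-linked genes looked for (Ddx3y, Eif2s3y, Kdm5d and Uty) had 0 UMIs in any member. Whether some shallow members are broken cells or droplets with free RNA was not tested.

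Cd163, the scavenger receptor in the series title, had 9 UMIs in CD163_FL, none in the member, and 15 in CD163_NC, of which 7 lay in 4 members, all in the F13a1 range. The level was 2.74 CPM in members of CD163_NC and 0.0882 CPM in the other barcodes, too few UMIs for a statement on the gene beyond these counts.

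The closest granulocyte population of CD163_NC was 97 non-members with at least 10 UMIs over S100a8, S100a9, Retnlg, Mmp9 and Cxcr2 and without the T cell or plasma cell gate (mature neutrophil gate cells, median 7883 UMIs). Those 5 genes and the plasma and T cell genes chose this group. Its name is that of the gate, and the maturity of the cells was not tested. Their cell cycle list stood at 3494 CPM, against 1515 CPM in the other barcodes. Over 9521 genes tested, 44.3% were at least 2-fold higher in members, 9.45% lower, and the median log2 ratio was 0.80; by the whole interval the shares were 18.5% and 5.36%. Of 10 secondary granule genes 9 were lower in members (median −2.97): Ngp had 4501 against 35935 CPM, Lcn2, the siderophore-binding lipocalin, 1190 against 15338 CPM, and Ltf 298 against 8403 CPM. Cebpe, at 145 against 286 CPM, was the one within 2-fold. All 10 mature neutrophil genes were lower (median −3.62), of which 5 chose the gate cells. Mmp8 was at 2.74 against 1177 CPM and Csf3r at 69.3 against 301 CPM.

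Against these gate cells, 9 of 12 stem and progenitor genes were higher in members and 0 lower (median 3.16), and 12 of 14 cell cycle genes were higher (median 1.56). Kit had 79.9 against 8.48 CPM, Myb 264 against 26.5 CPM, and Cd34 70.5 CPM against 0 UMIs. The largest ratios belonged to Gria3 (336 against 1.06 CPM), Cst7 (106 against 1.06 CPM), Cma1, Prss34, Cpa3 and Mcpt8 of the basophil and mast cell range, Cacnb2 (51.3 against 1.06 CPM) and Plppr3 (50.1 against 1.06 CPM). After Retnlg, Mmp9 and Mmp8, the smallest belonged to the formyl peptide receptors Fpr2 (0.783 against 311 CPM) and Fpr1 (0.392 against 85.9 CPM), Ceacam10 (0.392 against 76.3 CPM) and to Cstdc4 and Stfa2l1, of the stefin family, both at 0 UMIs in members.

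**Figure D4:**
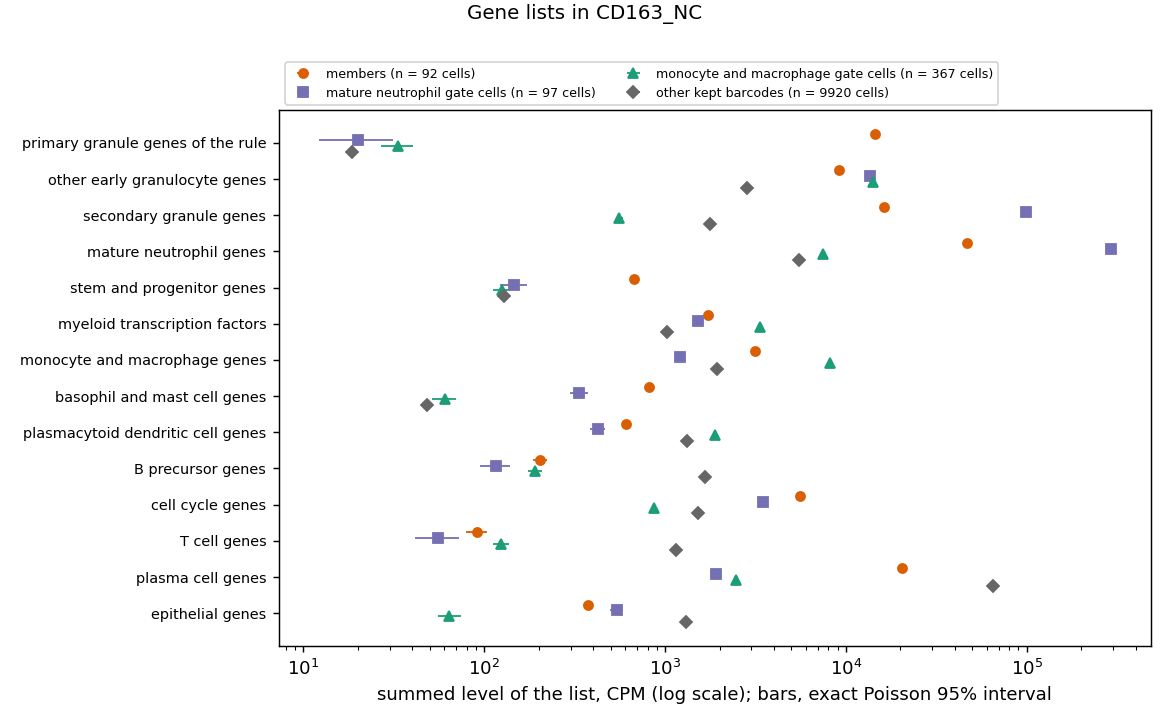
Summed level of 14 gene lists, in CPM (log scale) with exact Poisson 95% intervals, in the members, mature neutrophil gate cells, monocyte and macrophage gate cells and other kept barcodes (all non-members, gate cells included) of CD163_NC. Members stood highest for the primary granule (the rule), stem and progenitor and cell cycle lists, and for the basophil and mast cell list through 3 cells that held 1916 of 2072 UMIs; they stood between the neutrophil gate cells and the others for the secondary granule list.

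The second population set beside the members was 367 non-members with at least 3 UMIs over Csf1r, F13a1, Ccr2, Fcgr1 and Cx3cr1 and without the neutrophil, T cell or plasma cell gates (median 7728 UMIs). Over 10779 genes, 24.2% were at least 2-fold higher in members and 20.8% lower, with a median log2 ratio of 0.20; by the whole interval the shares were 12.3% and 14.5%. Of 11 tested monocyte and macrophage genes 9 were lower in members (median −3.34), but 5 of the 11 chose the gate cells and are no finding; of the other 6, 5 were lower and Ly6c2 was within 2-fold. The complement genes C1qa, C1qb and C1qc of tissue macrophages had 1.17, 0.783 and 0.392 CPM in members against 643, 563 and 308 CPM in monocyte gate cells. Il1b had 8.22 against 2083 CPM. The smallest ratios also took in Sirpb1c, C3ar1 and Slc11a1, each with 1 UMI in members.

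F13a1, itself in the gate, was higher in members at 412 against 189 CPM, and reached 829 CPM in the range named for it. Ly6c2, a surface protein of monocytes, was at 2330 against 3872 CPM, within 2-fold. Of 9 tested secondary granule genes 8 were higher in members and 0 lower (median 5.87), and of 14 cell cycle genes 13 were higher (median 3.79). The largest ratios were those of Ms4a3 (777 against 0.698 CPM), Camp (8606 against 14.3 CPM), Prss34, S100a8, S100a9, Wfdc21 (869 against 2.79 CPM), Fcnb and Ngp. Irf8 was within 2-fold, at 197 CPM in members and 224 CPM in monocyte gate cells.

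The members were last ordered by the share of their UMIs from the 4 granule genes and cut into 4 groups of 23: 0.0306 to 0.405%, 0.416 to 1.18%, 1.20 to 2.38%, and 2.41 to 5.93%. The secondary granule list ran at 38774, 15304, 6731 and 2702 CPM from the lowest share to the highest, a log2 ratio of −3.84 (−3.91 to −3.77) for the highest over the lowest group. The mature neutrophil list followed at 96490, 44857, 24204 and 18339 CPM. Of the 41566 secondary granule UMIs of members, 40755 lay in the 21 cells of the secondary granule range. So did 114835 of the 119533 mature neutrophil UMIs. Both orders thus mostly show where those 21 cells fell, and are no separate result. The stem and progenitor list had no such order, at 777, 447, 667 and 777 CPM (log2 ratio −0.00, −0.18 to 0.18). The monocyte and macrophage list stood at 3089, 3557, 3409 and 2507 CPM. The shares of the list genes are parts of 1 total with the granule genes, so a fall of one as the other rises is in part fixed by the measure.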

How the data were processed

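The deposited matrices hold counts of UMIs per gene and barcode for 32285 genes, not normalized. Per the file headers they were written by Cell Ranger 7.1.0; the submitters' processing notes name mm10 and Seurat 4, with no role given. The labels give no alignment settings and do not say whether stray RNA was corrected for. CD163_FL held 15270 barcodes with 131306539 UMIs and CD163_NC 10390 with 94729872.

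Barcodes needed at least 500 UMIs, 200 genes and at most 10% mitochondrial UMIs. Called doublets were kept in the main values and left out as an alternative (Scrublet in scanpy 1.11.5). The members, the gene lists and the gates were chosen with earlier results of these data known. Levels are CPM of summed UMIs, shares have Clopper-Pearson intervals, levels exact Poisson intervals and ratios exact conditional binomial intervals, all 95%. A gene counted as higher or lower past 2-fold among genes with at least 20 UMIs over both groups. Where a count was 0, the limit printed is that of 3 counts. The ratio step recovered the known folds on simulated Poisson counts, the model it assumes. Those counts had no variation between cells, so the check says nothing on how the intervals hold under such variation. With 1 library per group no test was made.

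Named genes were the 6 given marks, the 15 largest ratios (at least 50 UMIs in members, interval above 2-fold) and 10 highest levels against the other barcodes, the 8 largest and 8 smallest ratios against each gated group, and up to 5 genes of each list with the most UMIs in members, plus those at 0. The ranking left out mitochondrial, ribosomal protein (Fau aside) and sex-linked genes, antigen receptor segments, immunoglobulin genes such as Igkc and unnamed models. Genes named outside this rule (Cebpa, Cebpe, Gfi1, Il7r, Itgam, Itgb7, Ltf, Smim5 and Tpsb2, besides gate genes) were chosen after their values were seen. Some genes that the rule names are not reported here. Alternatives changed the rule, the filters, the gate minimum, the depth and the grouping.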

Additional observations from a re-analysis of the deposited data

How the results depend on the processing

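No paired analysis was possible because each group is 1 library and no result comes from a test. Of 113 alternative values of the main results, 94 moved less than their counting interval or 1.5 times. The CD163_FL share became 0% with a sum of at least 20 UMIs, with Mpo and Elane only, and with a sum of at least 0.2% of UMIs. The CD163_NC share (0.919%) was 0.739% with Mpo and Elane only, 1.18% with 0.2% of UMIs and 2.32% among barcodes of at least 10000 UMIs, an alternative chosen after seeing the data, as was leaving out members with 1000 or more immunoglobulin UMIs. The plasmacytoid gate share (6.52%) was 28.3% at a minimum of 1 UMI, 0% at 10 and 0% after thinning; the B precursor share (0%) was 8.70% at a minimum of 1. The secondary granule share (43.5%) was 77.2% at a minimum of 1, 22.8% at 10, 26.2% after thinning and 29.7% with 0.2% of UMIs. Genes lower than in neutrophil gate cells numbered 1805 with a filter of 1 UMI, against 900, since more genes were then tested.

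By granule share, the secondary granule log2 ratio was −3.94, the stem and progenitor ratio −0.29 and the monocyte ratio 0.064 among members of at least 10000 UMIs, and the monocyte ratio −0.46 with 3 groups in place of 4; the cause was not tested. Of 1774 single-gene values, 449 moved by more than their counting interval, among them 133 of 209 at 10000 UMIs, 118 of 206 with mean CPM per cell and 109 of 206 without immunoglobulin-high members, and 5 reversed: Hbb-bt (0.36) and Pf4 (0.15) with a sum of at least 5 UMIs, Cma1 (−1.97) and Mcpt4 (−4.58) with at least 20, where fewer members remained, and Cxcl2 against neutrophil gate cells (1.68) at 10000 UMIs. Members of CD163_FL cannot be described beyond 1 cell, and shallow members hold too few UMIs for absent genes to be read.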

Other observations

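Outside the members, the 4 granule genes were unevenly spread. In CD163_FL, Prtn3 gave 65.1% of the 258 granule UMIs of non-members and Elane 2.33%, while in CD163_NC Prtn3 gave 30.4% of 1691 and Elane 20.9%. In T cell gate cells Prtn3 gave 61.2% of 103 granule UMIs in CD163_FL and 27.3% of 520 in CD163_NC. In CD163_NC the level of Prtn3 was 22.7 CPM in monocyte gate cells, 12.7 CPM in mature neutrophil gate cells and 4.65 CPM in T cell gate cells. The level of Elane in the same groups was 3.49, 6.36 and 3.87 CPM. These are values of 1 library each and were not tested.

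Basophil and mast cell transcripts were also found outside the members. At least 3 UMIs over Mcpt8, Prss34, Cpa3, Ms4a2 and Fcer1a were in 55 other barcodes of CD163_FL, 18 of them with a granule UMI (at most 5), and in 41 of CD163_NC, 13 with a granule UMI (at most 9).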
